A study of Mus musculus with 24 samples.

Results

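Of the 62 constructs read in every Hi-TransMet pool, 8 carry the motif of a blood factor: GATA, PU.1, RUNX1 and c-REL, each as a wild-type (WT) and a scrambled (Sc) version. They were taken by construct name (names that start with GATA, PU.1 or Runx1 or hold Rel) and make up 4 of the 30 motif pairs. Each construct is the bacterial fragment FR1 with 1 motif at its centre, placed at the β-globin locus by recombinase-mediated cassette exchange (RMCE). FR1 entered the cells either untreated (−SssI) or after in vitro methylation with M.SssI (+SssI). The ESCs and the neuronal progenitors (NPs, day 8) are C57BL/6 X 129S5 and wild type, and both were read under −SssI and +SssI. The TET TKO ESCs lack TET1, TET2 and TET3, are C57BL/6 X 129/sv and were read under +SssI only, so that strain and knockout cannot be told apart. All pools carry the RMCE site and the same set of constructs.

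GATA factors are zinc finger proteins, of which some switch on genes of red blood cells and platelets and others shape endoderm, heart and trophoblast. PU.1, an ETS-family factor encoded by Spi1, directs myeloid and B cells, and RUNX1, which binds DNA with its partner CBFβ, is needed for blood stem cells to emerge in the embryo. c-REL is an NF-κB subunit of activated lymphocytes, and IκB proteins hold NF-κB in the cytoplasm until a signal releases it.

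The deposited values are reads and methylated reads per CpG, at 18 CpGs upstream (−291 to −32 bp) and 5 downstream (37 to 252 bp) of the motif. The PU.1 fragments have 1 more CpG inside the motif. The 8 constructs had a median of 133 reads per CpG in ESCs under −SssI, 428 in ESCs under +SssI, 378 in NPs under −SssI, 541 in NPs under +SssI and 80 in TET TKO ESCs. At least 10 reads were found at 179, 166, 179, 166 and 184 of 184 CpG values outside the motif. All gaps belonged to the c-REL Sc fragment, which lacked the downstream CpGs under −SssI and the upstream CpGs under +SssI in ESCs and NPs.

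The WT methylation minus that of its Sc control, in percentage points and averaged over CpGs, is called Δmet, and its 95% interval covers counting error only. The interval is taken at the median depth over the CpGs, so it can be too narrow where some CpGs have far fewer reads. A CpG was called lower or higher at the WT when the fragments differed by at least 10 points with an adjusted p under 0.05 (Fisher's exact test, Benjamini-Hochberg over all 30 pairs of the pool). A hypomethylated region (HMR) is a stretch of at least 3 called lower CpGs in a row over more than 50 bp. Reads of 1 cell and CpGs of 1 read are not independent, and the test compares pooled libraries. The runs of a pool include biological and technical repeats, and which is which is not stated. Because fragments were spread unevenly over runs, Δmet is also given within runs, that is, only from runs with at least 10 reads of both fragments, called shared runs. Some runs of a pool differed in their fragment counts by no more than sampling noise and are called alike. These were upstream runs 1, 2 and 5 of ESCs and 2, 9 and 10 of NPs under −SssI, upstream runs 2 and 9 and downstream runs 1 and 11, and 9 and 10, of NPs under +SssI, and downstream runs 10 and 11 of TET TKO ESCs. Alike runs are no separate support for a sign.

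Under −SssI, the 4 motifs together had called CpGs on both sides of their Sc fragments. In ESCs, 29 of 88 CpGs (33.0%) were lower at the WT and 29 were higher, against 45.2% and 27% over all 30 pairs. Within runs, 26 of 70 were lower and 11 higher, against 35.4% and 23.1% over all pairs. An HMR was present at 1 of the 4 motifs, PU.1, against 50% of all pairs. In NPs, 20 of 88 CpGs were lower and 26 higher, against 30.8% and 15.9% over all pairs, and 18 of the higher ones belonged to c-REL. Within runs, 19 of 70 were lower and 9 higher, against 31.2% and 14.8%. PU.1 again held the single HMR of the 4 motifs, against 33.3% of all pairs.

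Under +SssI, more CpGs of the 4 motifs were higher than lower in ESCs over summed reads, while the counts were close within runs. More were lower in NPs and TET TKO ESCs. In ESCs, 10 of 75 CpGs (13.3%) were lower and 25 (33.3%) higher, against 48.8% and 13.6% over all pairs; within runs, 14 were lower and 15 higher, against 42.1% and 13.5%. An HMR was present at 2 motifs, RUNX1 and c-REL, against 60% of all pairs. The HMR of c-REL was absent within runs, where 1 of the 4 motifs, RUNX1, had an HMR, against 44.8% of pairs. In NPs, 24 of 75 CpGs were lower and 2 higher, against 35.9% and 9.84%, and within runs 21 were lower and 2 higher, against 33% and 16.7%. The 2 motifs with an HMR in NPs were PU.1 and RUNX1, against 46.7% of all pairs. Of 93 CpGs in TET TKO ESCs, 25 were lower and 9 higher, against 20.2% and 23.1%, and within runs 26 were lower and 8 higher, against 20.5% and 22.6%. GATA and RUNX1 held an HMR there, against 26.7% of all pairs. The median Δmet of a CpG was 5.63, −6.22 and −0.627 points in these 3 pools, against −12.9, −4.43 and 0.418 over all pairs. In ESCs, then, fewer CpGs of these 4 motifs were lower than over all pairs, while in NPs and TET TKO ESCs the share of lower CpGs lay near the background.

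The GATA motif, the site of the erythroid and endodermal GATA factors, went with lower methylation than its Sc fragment in 2 of the 5 pools, and in 1 of them the sign turned with the reference. The WT fragment was methylated at 69.6% and its Sc control at 89.4% in TET TKO ESCs, which gives a Δmet of −19.7 points (95% interval ± 11.9, median depth 70 and 141 reads). The WT value lay below those of all 30 Sc fragments of the pool, which ranged from 70.1% to 98.0% around a mean of 88.8% ± 8.06 (SD). Of 23 CpGs, 16 were called lower and 1 higher. They formed 3 HMRs, with a mean Δmet of −32.9 points from −291 to −211 bp, −30.6 from −187 to −121 bp and −14.7 from 37 to 109 bp. Only the ETS motif had a lower Δmet among the 30 pairs.

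The upstream GATA difference in TET TKO ESCs rests on run 10, the only shared run there, at 64.8% and 89.5%. Downstream, the fragments were at 78.5% and 87.8% in run 10 and at 81.9% and 91.7% in run 11, and these runs were alike. Run 9 held 22.9% of the downstream WT reads, at 99.6%, with a median of 4 Sc reads per CpG, so it was not shared. With it, the downstream Δmet was −4.12 points (± 8.61). The HMR from 37 to 109 bp was present within runs (−21.1 points) and absent with alike runs counted once, an alternative added after the data were seen. Within runs, Δmet was −21.4 points (± 12.1), and without run 10, which leaves the downstream CpGs, it was −1.76. The WT methylation took few levels, with 57.4% at −291 bp, 57.1% at −275, −264 and −166 bp, 58.6% at −148, −121 and −88 bp, and 87.1% and 85.7% at −103 and −101 bp.

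In ESCs under −SssI, the GATA fragments were at 68.7% (WT) and 81.3% (Sc), a Δmet of −12.5 points (± 4.07, with 1655 and 505 reads), with 10 CpGs lower, 2 higher and no HMR. The Sc fragment was the most methylated of all 30 Sc fragments, which ranged from 19.7% to 81.3% around a mean of 56.1% ± 17.6 (SD). Against the mean of all Sc fragments, however, Δmet turned to 12.4 points (± 2.38), and against FR1 without a motif to 8.49 (± 9.90). These intervals leave out the spread between Sc fragments. In the 4 shared runs, Δmet was −6.39, −11.2, −4.91 and −7.81 points (runs 1, 2, 4 and 5), and −13.9 (± 4.08) over all of them. Runs 1, 2 and 5 cover upstream CpGs only, and the 5 downstream CpGs came from run 4 alone, at −40.0 points (± 29.1). Upstream alone, the value over the shared runs was −6.63 points (± 3.81). Runs 1, 2 and 5 were alike, and run 4 was at 4.84 points (± 24.5) upstream and negative only through its downstream reads. Upstream, Δmet was −5.75 points (± 3.81) over all runs. The 5 downstream CpGs gave −37.0 points (± 29.1) from 22 WT and 15 Sc reads. The ± 4.07 and ± 4.08 are taken at the median depth and do not cover the error of these few reads. There the WT fragment had 1 of 22 methylated reads at 37 bp, 1 of 22 at 46 bp, 16 of 22 at 109 bp, 1 of 21 at 151 bp and 20 of 21 at 252 bp. Without run 4, which holds nearly all downstream reads, Δmet was −7.09 points.

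In the other 3 pools, GATA showed small or unsteady differences. In ESCs under +SssI, the fragments were at 66.9% and 61.8%, a Δmet of 5.15 points (± 5.05), with 6 CpGs higher and 0 lower. The 30 Sc fragments of that pool ranged from 42.3% to 82.8% around a mean of 67.4% ± 10.8 (SD). The 2 shared runs gave 9.13 points (run 4) and −0.386 (run 5), and within runs Δmet was 2.07 points (± 5.16). The value was 0.101 without run 4 and 23.5 without run 5, so its size depends on the run, and it was −0.949 (± 2.80) against the mean of all Sc fragments. In NPs, Δmet was 2.53 points (± 7.41, from 90.9% and 88.4%) under −SssI, with 3 CpGs lower and 4 higher, and −0.272 (± 7.71) within runs. Under +SssI, it was −2.10 (± 2.84, from 86.7% and 88.8%), with 1 CpG lower and 3 of 6 shared runs, some of them alike, below 0, and −1.30 (± 2.91) within runs. The 30 Sc fragments had an SD of 16.1 points in NPs under −SssI, with c-REL at 3.70%, and 6.57 under +SssI.

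Over summed reads, the PU.1 motif was lower at the WT in both −SssI pools. In ESCs, the WT fragment had 53.5% and the Sc fragment 71.6% methylation, so that Δmet was −18.1 points (± 9.68, with 119 and 530.5 reads), with 13 of 24 CpGs lower and 1 higher. The Sc fragment lay above 24 of the 30 Sc fragments, and against their mean Δmet was −2.95 points (± 8.93), and −5.46 (± 13.2) against FR1 without a motif. The 3 shared runs gave −10.8, −30.3 and −8.75 points (runs 1, 4 and 5). Runs 1 and 5 were alike, and within runs Δmet was −19.0 points (± 9.99). The HMR ran from −32 to 109 bp over the motif itself, with 5 CpGs and a mean of −33.3 points; within runs it covered 3 CpGs from 37 to 109 bp. Downstream, 27 WT reads were methylated at 8.15% and 23 Sc reads at 55.7%, all in run 4. Without run 4, Δmet was −8.29 points.

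In NPs under −SssI, the PU.1 fragments were at 83.2% and 89.7%, a Δmet of −6.51 points (± 5.78, with 212 and 453 reads), with 11 CpGs lower and 4 higher. Runs 2, 9 and 10 gave −5.14, −4.77 and −3.34 points, and were alike upstream. Within runs, Δmet was −5.55 points (± 6.29), an interval that includes 0. With alike runs counted once, it was −8.76 points (± 8.77). An HMR of 4 CpGs from −178 to −121 bp averaged −17.7 points and was present within runs too. The CpG inside the motif went the other way, where the WT fragment had 99.1% and the Sc fragment 87.1%.

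Under +SssI, the PU.1 motif was above its Sc fragment in ESCs, over summed reads alone, and below it in NPs. In ESCs the fragments were at 66.2% and 55.8%, a Δmet of 10.4 points (± 9.47, with 480 and 130 reads), with 12 CpGs higher and 3 lower. Within the 2 shared runs it was −1.82 points (run 4) and −3.08 (run 5), and 0.313 (± 9.47) over both, so the summed difference was absent within runs. Leaving out run 4 or run 5 turned its sign, to −3.08 and −1.82, as did the mean of all Sc fragments as reference (−1.76 ± 4.35). In NPs the fragments were at 85.7% and 90.5%, a Δmet of −4.76 points (± 3.97, with 490.5 and 546 reads), with 4 CpGs lower and 0 higher. The 6 shared runs, some of them alike, were below 0, from −16.7 to −1.37 points, and Δmet was −4.75 (± 3.97) within runs and −1.37 (± 3.18) against the mean of all Sc fragments. Upstream, run 8 was at 1.0 point (± 14.1). The difference lay downstream, at −11.2 points (± 4.15) against −3.29 (± 3.64) upstream, and an HMR from 109 to 252 bp averaged −20.8 points. TET TKO ESCs had PU.1 at 93.6% and 96.7%, a Δmet of −3.07 points (± 6.92) and −2.99 (± 6.92) within runs, with 5 CpGs lower and 1 higher.

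The ETS motif is bound by factors of the family that PU.1 belongs to, and over summed reads the 2 motifs differed in 4 of the 5 pools. In ESCs under −SssI, Δmet was −18.1 points for PU.1 and −0.925 (± 14.8) for ETS, a difference of −17.2 points (± 17.7). In ESCs under +SssI, ETS was at −10.6 points (± 11.1), and PU.1 lay 21.0 points (± 14.6) above it. In NPs, ETS was at 6.84 points (± 7.82) under −SssI and 9.95 (± 4.63) under +SssI, and PU.1 lay below it by a difference of −13.4 (± 9.73) and −14.7 points (± 6.10). The order turned again in TET TKO ESCs, with −27.4 points (± 10.4) for ETS and a difference of 24.3 points (± 12.5). Within runs, an alternative added after the data were seen, the difference was −19.2 points (± 18.4) in ESCs under −SssI, −15.8 (± 10.6) and −21.4 (± 7.93) in NPs, and 24.1 (± 12.4) in the TKO pool. In ESCs under +SssI it was −3.69 points (± 16.4) within runs, with ETS at 4.0 (± 13.4), so the 21.0 points were absent there. The motifs thus differed both over summed reads and within runs in 3 pools, those of NPs and of TET TKO ESCs.

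Around the RUNX1 motif, the 3 CpGs at 109, 151 and 252 bp were lower at the WT in all 3 +SssI pools. In ESCs, the WT fragment had 44.3%, 33.2% and 43.4% methylation there and the Sc fragment 73.0%, 53.1% and 87.9%. In NPs it was 78.8%, 56.6% and 72.0% against 97.7%, 79.1% and 96.2%, and in TET TKO ESCs 68.8%, 60.1% and 78.9% against 90.1%, 72.4% and 96.2%. The HMR averaged −31.1, −21.8 and −17.0 points in the same order of pools. Within runs it averaged −28.0, −21.1 and −18.1 points, over the sum of shared runs. Run by run, the 3 CpGs averaged 14.3 points in run 4 of ESCs, with 15 WT reads, and −35.0 in run 5. They averaged −17.8, −32.5 and −18.3 points in NPs (runs 1, 8 and 11) and −18.9 and −17.3 in the TKO pool (runs 10 and 11, which were alike). The stretch was singled out after the values were seen, so a count of motifs with it is no separate support for RUNX1. Of the 30 motifs, 9 had an HMR over these 3 CpGs in the ESC pool, 5 in the NP pool and 1 in the TKO pool. As the only one in the TKO pool, RUNX1 was also the 1 motif with it in all 3 pools.

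Over the whole RUNX1 fragment, the +SssI pools differed. In NPs, the WT fragment had 65.8% and the Sc fragment 85.3% methylation, so that Δmet was −19.5 points (95% interval −31.5 to −7.46, with 158 and 55 reads), with 17 of 23 CpGs lower and 2 higher. Runs 1, 8 and 11 gave −26.2, −14.0 and −2.16 points, the last from the downstream CpGs alone. Runs 1 and 11 were alike downstream, and 2 further HMRs lay from −166 to −90 bp (−34.6 points) and from −84 to 37 bp (−20.3 points). These 2 were absent within runs, where Δmet was −19.3 points (± 12.5). In ESCs, Δmet was 0.908 points (± 10.3, from 64.5% and 63.6%), with 4 CpGs lower and 5 higher, and −0.652 (± 10.3) within runs. Its downstream CpGs gave −16.3 points (± 8.98) and its upstream CpGs 5.68 (± 10.3); without run 5, the value was 68.5 points, from 10 WT and 15 Sc reads. The TET TKO pool gave a Δmet of 1.61 points (± 7.87) and 1.29 (± 7.81) within runs, with −9.82 (± 5.61) downstream and 4.78 (± 6.83) upstream, and −8.42 without run 10.

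Under −SssI, RUNX1 in ESCs had a wide gap between summed and within-run values. In ESCs, the WT fragment had 69.8% and the Sc fragment 33.1% methylation, so that Δmet was 36.7 points (± 9.08, with 394 and 136 reads), with 19 CpGs higher and 3 lower. It was 13.4 points (± 4.60) against the mean of all Sc fragments and 9.52 (± 10.7) against FR1 without a motif. Upstream, the WT fragment was at 91.5% in run 1, 92.6% in run 5 and 39.0% in run 4, which held 40.7%, 32.1% and 25.2% of its reads. The Sc fragment was at 30.1% in run 4, which held 95.4% of its reads. In run 4, the only shared run, Δmet was 4.70 points (± 12.4). The WT reads above 90% methylation thus lay in runs with fewer than 10 Sc reads. In NPs, where the fragments were at 88.1% and 93.0%, Δmet was −4.88 points (± 3.68, with 598 and 380 reads), with 6 CpGs lower and 0 higher. Within runs it was −3.66 (± 3.91), an interval that includes 0, with 5 CpGs lower and 3 higher. The downstream CpGs gave −0.275 points over summed reads and 0.00726 within runs. Against the mean of all Sc fragments, the sign of Δmet over the whole fragment turned, to 0.50 points (± 2.67). That mean includes the c-REL Sc fragment, at 3.70% from 18 upstream reads, while the Sc fragments averaged 86.9%. The value without the c-REL Sc fragment was not computed, so the turn of the sign may rest on it. Runs 2, 9 and 10, which were alike upstream, gave −5.10, −3.60 and −4.25 points.

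The c-REL motif could be compared over the whole fragment only in TET TKO ESCs. There the fragments were at 97.9% and 96.7%, a Δmet of 1.18 points (± 7.71, with 67 and 45 reads) and 1.46 (± 7.68) within runs, with 2 CpGs higher and 0 lower. In NPs under −SssI, 18 Sc reads stood against 483 WT reads at the upstream CpGs, with 3.70% and 92.6% methylation and a Δmet of 88.9 points (± 12.3). Of these Sc reads, 17 came from run 8 and were unmethylated at all 18 CpGs, and the WT fragment had no reads in that run; the WT fragment was at 92.4%, 92.6% and 92.9% in runs 2, 9 and 10. The largest Δmet of the 30 pairs therefore compares different runs, and 1 of its sides is a small set of uniform reads. Against the mean of all Sc fragments, which includes these 18 reads, Δmet was 1.44 points (± 2.86), and against FR1 without a motif −1.97 (± 7.33).

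In ESCs, the c-REL fragments were also thinly covered. Under −SssI, Δmet was 8.75 points (± 16.4, with 56 and 82 upstream reads, 43.6% and 34.9%), with −12.9 (± 12.8) against all Sc fragments, and the fragments had no shared run. The WT fragment was at 38.2% in run 4, and the Sc fragment at 31.0% and 39.7% in runs 1 and 5, which were alike. Under +SssI, 16 Sc reads at the 5 downstream CpGs gave a Δmet of −14.2 points (± 23.4), and 1.41 within run 5; of these reads, 1 was methylated at 37 and 46 bp and 15 at each of the 3 later CpGs. In NPs under +SssI, Δmet was −17.4 points (± 6.76, with 856 and 37 reads, 81.0% and 98.4%), with 2 of 5 CpGs lower. The sign turned at a minimum of 1 read, to 17.2 points (± 29.4), and the value was 0.804 (± 2.58) against all Sc fragments and 0.0339 (± 4.04) against FR1 without a motif. In run 8, the shared run, it was −26.3 points (± 11.4), and within runs an HMR from 109 to 252 bp averaged −32.5 points.

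Differences of Δmet between pools were tested per CpG as well, with the same limits. The comparisons of NPs and of TET TKO ESCs under +SssI share the ESC pool. From ESCs to NPs under −SssI, 27 of 88 CpGs had a lower and 39 a higher Δmet, against 29.9% and 39.1% over all pairs. Under +SssI, 37 of 75 were lower and 6 higher in NPs, against 22.9% and 39.1%. From ESCs to TET TKO ESCs, 39 of 75 were lower and 13 higher, against 17.1% and 49.1%. These counts come from summed reads. Between +SssI and −SssI, 24 of 70 CpGs were lower and 30 higher in ESCs, against 38.2% and 26.9%, and 25 of 70 were lower and 12 higher in NPs, against 31.5% and 24.2%.

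For single motifs, the difference of Δmet between TET TKO and wild-type ESCs was −24.9 points (± 12.9) at GATA and −23.4 within runs, −13.5 (± 11.7) at PU.1 and −3.30 within runs, and 0.697 (± 12.9) at RUNX1 and 1.94 within runs. From ESCs to NPs under +SssI, it was −20.4 (± 15.8) at RUNX1 and −18.7 within runs, −15.1 (± 10.3) at PU.1 and −5.06 within runs, and −7.25 (± 5.79) at GATA and −3.37 within runs. GATA in TET TKO ESCs and RUNX1 in NPs thus kept their difference within runs, whereas most of that at PU.1 was lost. Under −SssI, NPs lay above ESCs by 15.1 points (± 8.45) at GATA and 11.6 (± 11.3) at PU.1, and by 13.6 and 13.5 within runs. At RUNX1 the difference was −41.5 points (± 9.80), and −8.36 within runs. Between +SssI and −SssI in ESCs, it was 17.7 points (± 6.48) at GATA and 28.5 (± 13.5) at PU.1, and 16.0 and 19.3 within runs. The GATA intervals that involve ESCs under −SssI do not cover the error of the few downstream reads there. At RUNX1 the difference between +SssI and −SssI was −35.8 points (± 13.7) in ESCs and −14.6 (± 12.6) in NPs, and −5.36 and −15.7 within runs. NPs had −4.63 points (± 7.93) at GATA and 1.75 (± 7.01) at PU.1 between the conditions, with −1.03 and 0.803 within runs, and both intervals include 0. For c-REL, NPs and ESCs differed by 80.1 points (± 20.5) under −SssI, with no shared run, and by −3.18 (± 24.4) under +SssI, or −27.7 within runs. Between TET TKO ESCs and ESCs the c-REL difference was 11.7 points (± 23.9), and −3.36 within runs.

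The genes of these factors were read by RNA-seq as counts per gene, in 3 libraries of each cell type. A list of 34 factor genes holds the GATA, SPI, RUNX and NF-κB factors with their partners and inhibitors. A gene with at least 1 RPKM in at least 1 library was tested with edgeR, and called at an adjusted p under 0.001 and a change of at least 3-fold. In NPs, 27 of the 34 were tested, and 4 (14.8%) were higher and 3 (11.1%) lower than in ESCs, against 12.4% and 9.98% of all genes. Their median log2 fold change was 0.50, against 0.03 over all genes. Of the 34, 20 were tested in TET TKO ESCs, and 0 were higher and 0 lower, against 0.847% and 1.29% of all genes. With 1 library left out, 0 were called in each case, against 0.0717% to 0.868% higher and 0.265% to 1.32% lower of all genes, so the background itself varied with the library. At an unadjusted p under 0.05, 7 of these 20 were higher and 9 lower, against 23.3% and 21.8% of all genes. With DESeq2, 2 were called higher (Gata2 and Gata3) and 2 lower (Spic and Runx1t1), against 2.90% and 3.63%. In NPs, DESeq2 called 6 higher, with Gata2 and Cbfa2t3 added, and 3 lower, against 13.7% and 12% of all genes. The shares in NPs were thus near the background with edgeR, and calls in both comparisons depended on the test.

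Among the GATA family, Gata6, Gata3 and Gata5 were called higher in NPs. Gata6, a regulator of primitive endoderm and heart, was at 0.368, 0.459 and 0.229 RPKM in ESCs and 3.79, 5.33 and 3.34 in NPs (log2 fold change 3.55 ± 0.33 (SE), n = 3 and 3, adjusted p = 3.62e-5, edgeR). Gata3, a T cell and trophoblast factor, was at 0.248, 0.357 and 0.0716 RPKM in ESCs and 3.78, 5.54 and 2.19 in NPs (4.08 ± 0.55, adjusted p = 0.000272). The groups did not overlap for either gene, nor for Gata2 and Gata4, which were not called. The share of all genes without overlap was not counted. The call of Gata3 was lost without ESC library 1 (4.17) or NP library 1 (4.07). Gata5, of heart and gut, had 0, 1 and 0 counts in ESCs and 265, 148 and 205 in NPs, a call whose ratio of 608 (95% counting interval 109 to 24069) rests on 1 count. In the other direction went Gata1, the master factor of red blood cells, with 1.50, 1.61 and 2.09 RPKM in ESCs and 0, 0.0844 and 0.0177 in NPs (−5.54 ± 0.63, adjusted p = 0.000107). Gata2, of blood stem cells, ranged from 0.592 to 5.26 RPKM in NPs (3.81 ± 0.74, adjusted p = 0.00201), and it and Gata4 (1.28 ± 0.43, adjusted p = 0.0280) were not called. Leaving out NP library 3 brought a call of Gata2 (4.28). The TET TKO libraries held Gata2 at 1.01, 2.74 and 2.62 RPKM, above 0.131, 0.187 and 0.301 in ESCs, without passing the limit (3.24 ± 0.48, adjusted p = 0.00253). Of the 5 GATA partners, 3 were tested in NPs and 0 were called, against 12.4% higher and 9.98% lower of all genes. The LIM adaptor Ldb1 was the most abundant, at 63.8, 64.9 and 69.2 RPKM in ESCs and 69.0, 57.2 and 62.0 in NPs. In bulk RNA, a change in the share of cells and a change of RNA per cell cannot be told apart.

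Transcripts of PU.1 itself were scarce in every library. Spi1 had 18, 22 and 30 counts in ESCs, 0, 0 and 0 in NPs, and 28, 30 and 57 in TET TKO ESCs, and was below the limit for testing. Its relative Spic, a factor of red pulp macrophages, was at 2.08, 2.26 and 2.23 RPKM in ESCs and 0.0122, 0.0964 and 0.0112 in NPs (−5.70 ± 0.57, adjusted p = 5.24e-5). Irf8, a partner of PU.1 in myeloid cells, rose from 0.273, 0.273 and 0.415 RPKM to 3.15, 1.82 and 1.58 (2.75 ± 0.33, adjusted p = 0.000148), a call lost without ESC library 1 (2.65) or 2 (2.64). Of the SPI list, the 1 gene tested thus fell in NPs, against 9.98% of all genes. Of the 3 PU.1 partners, 2 were tested and 1 rose, against 12.4% of all genes. In TET TKO ESCs, Spic was at 0.365, 0.696 and 1.18 RPKM (−1.67 ± 0.40, adjusted p = 0.0164), below the ESC values in each library and not called.

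Runx1 was at 0.107, 0.112 and 0.0928 RPKM in ESCs, 0.179, 0.264 and 0.113 in NPs and 0.0778, 0.0699 and 0.20 in TET TKO ESCs, too low to be tested. Of the 3 RUNX genes, only Runx3 was tested in NPs, at 0.507, 0.512 and 0.675 RPKM in ESCs and 1.79, 0.896 and 1.70 in NPs (1.36 ± 0.33, adjusted p = 0.00620, not called). Leaving out NP library 2 brought a call of Runx3 (1.59). Cbfb, the common partner subunit, was at 16.5, 18.2 and 13.8 RPKM in ESCs, 19.5, 19.4 and 22.2 in NPs and 28.2, 34.4 and 39.6 in TET TKO ESCs. The partner was thus far more abundant than any RUNX factor. With edgeR, 0 of 3 tested RUNX partners were called in NPs, against 12.4% higher and 9.98% lower of all genes. In TET TKO ESCs it was 0 of 2, against 0.847% and 1.29%. With DESeq2, Cbfa2t3 was called higher in NPs (2.17) and Runx1t1 lower in TET TKO ESCs.

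All 5 NF-κB subunits were tested in NPs, and 1 was called lower and 0 higher, against 9.98% and 12.4% of all genes. This was Relb, of the alternative NF-κB pathway, with 5.89, 5.47 and 7.14 RPKM in ESCs and 1.33, 2.49 and 1.44 in NPs (−1.83 ± 0.26, adjusted p = 0.000393). Its call was lost without any 1 of the libraries except NP library 2, with values from −1.91 to −1.68. Rel, which encodes c-REL, was at 1.20, 1.12 and 1.09 RPKM in ESCs, 0.817, 0.948 and 1.23 in NPs and 1.0, 1.23 and 1.85 in TET TKO ESCs, so the groups overlapped. Of the 6 inhibitors and kinases, 0 were called in NPs, against 12.4% higher and 9.98% lower of all genes. Nfkbia, the gene of IκBα, was at 31.2, 32.0 and 39.2 RPKM in ESCs and 8.72, 18.5 and 13.7 in NPs (−1.33 ± 0.25, adjusted p = 0.00181). It was called lower when NP library 2 was left out (−1.63).

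Marker lists were read beside these genes, and their part in the results was not tested. Of 8 blood and endothelium markers, 3 were tested in NPs, where Pecam1 and Kit were lower and 0 were higher with edgeR, against 9.98% and 12.4% of all genes. The call of Kit was lost without ESC library 3 (−1.48) or NP library 2 (−1.51). Cd34 was called lower when NP library 2 was left out (−2.21). The list summed to 42.7, 41.1 and 60.5 RPKM in ESCs, 7.66, 7.03 and 7.74 in NPs and 38.0, 39.7 and 68.5 in TET TKO ESCs. Pecam1 was the most abundant in both ESC groups and Kit in NPs. Ptprc, which encodes the pan-leukocyte antigen CD45, had 0, 2 and 0 counts in ESCs, 0 in all NP libraries and 8, 21 and 2 in TET TKO ESCs. The embryonic globin gene Hba-x had 0 counts in all ESC libraries and 0, 1 and 0 in NPs, so the defining blood markers were at or near 0 in both. In TET TKO ESCs, 0 of the 3 tested were called.

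Of 9 primitive endoderm markers, 4 were higher in NPs (Sox17, Foxa2, Col4a1 and Ttr) and 0 lower, of 7 tested, against 12.4% and 9.98% of all genes. The call of Ttr was lost without any 1 library (4.37 to 8.17). Sox17, a primitive endoderm factor like Gata6, was at 0.0886, 0.201 and 0.0682 RPKM in ESCs and 2.77, 4.27 and 4.44 in NPs. The list summed to 35.1, 39.1 and 33.3 RPKM in ESCs and 120, 99.6 and 106 in NPs, with Col4a1 the most abundant in NPs and Lama1 or Col4a1 in ESCs. Afp had 2, 0 and 3 counts in ESCs and 16, 47 and 32 in NPs. In TET TKO ESCs the sums were 42.6, 29.9 and 47.9 RPKM, with 0 of 3 tested genes called. Of 7 trophoblast markers, 5 were tested in NPs, and 2 were higher (Krt8 and Krt18) and 2 lower (Eomes and Tfap2c), against the same shares, with sums of 38.5, 43.0 and 37.8 RPKM in ESCs and 405, 421 and 351 in NPs, with Tfap2c on top in ESCs and Krt18 in NPs. In TET TKO ESCs, 1 of 5 tested, Hand1, was higher, though not without any 1 library (3.90 to 4.67), against 0.847% of all genes. Krt18 was called higher when TET TKO library 3 was left out (2.87). The list summed to 157, 227 and 436 RPKM, with Krt18 on top.

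All 6 ESC markers fell in NPs, against 9.98% of all genes, from sums of 1417, 1453 and 1434 RPKM to 68.3, 57.7 and 55.2, mostly Sox2. In TET TKO ESCs, 1 of the 6, Zfp42, fell, against 1.29% (897, 906 and 1089 RPKM, with Pou5f1 or Nanog on top). Of 5 neural progenitor markers, 4 rose in NPs, against 12.4% of all genes, with sums of 72.9, 73.1 and 73.8 RPKM in ESCs and 275, 140 and 207 in NPs, where Tubb3 or Nes led, and 0 of 3 tested were called in TET TKO ESCs. The day 8 libraries thus held neural progenitor transcripts together with higher Krt8, Krt18 and some primitive endoderm markers. Bulk RNA cannot tell whether the same cells held both. Of the other lineage markers, Eomes, Tfap2c, Pecam1 and Kit were lower. Of the TET genes, Tet1 and Tet2 were lower in TET TKO ESCs, with Tet1 at 65.9, 60.8 and 68.5 RPKM in ESCs and 13.2, 16.1 and 11.3 in the knockout. Tet3 was below the limit for testing there, at 0.746, 0.631 and 0.770 RPKM in ESCs and 0.561, 0.617 and 0.474 in the knockout. In NPs, Tet3 was higher and Tet1 and Tet2 were lower.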

How the data were processed

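For the pools, the authors used Trim Galore 0.4.4 to trim reads, assigned them to constructs by barcode and motif, aligned them to FR1 with Bismark 0.20.0, filtered them on non-CG methylation (not in TET TKO cells) and removed duplicates by molecular tags. The deposited units are counts of reads and methylated reads per construct, CpG and run. For RNA-seq, the authors aligned reads to GRCm38 with STAR 2.6.1b and deposited raw counts per gene from featureCounts 1.6.2, without regard to strand.

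Reads were summed over the 8, 5, 7, 9 and 3 runs of the 5 pools, at a minimum of 10 reads. At the median depth of the GATA fragments, the 95% interval of Δmet was ± 4.07 points in ESCs under −SssI and ± 11.9 in TET TKO ESCs. The tables of ESCs under −SssI and of NPs under +SssI are each named by 2 samples, of which 1 carries a Sanger label. Their columns were listed under the other, which run belongs to which is not stated, and each table was taken as 1 pool. Calls used a two-sided Fisher's exact test. Differences of Δmet between pools used a normal test with 1 read added to each cell, and the same limits. Within runs, counts were combined by the Mantel-Haenszel method. Runs were taken as alike when their fragment counts did not differ (chi-square p over 0.01).

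RNA-seq libraries held 20.6, 21.6 and 24.0 M counts in ESCs, 20.5, 22.1 and 21.2 in NPs and 84.4, 80.7 and 93.2 in TET TKO ESCs. Groups were tested with the quasi-likelihood F-test of edgeR 4.0.16 in R 4.3.3 with TMM, over 15197 and 13939 genes. RPKM used TMM-scaled library sizes. DESeq2 1.42.0 was an alternative. The authors call the libraries biological replicates, and p-values measure the spread between the 3 of each group. TET TKO libraries were sequenced deeper, which affects counts of scarce genes set side by side. Other steps used Python 3.11.15, numpy 2.4.6, SciPy 1.17.1 and pandas 2.3.3. Both calls were tested on simulated data, the outcome of which is not given here.

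The members and gene lists were chosen with earlier results of these data known. Genes named are those of the 34-gene factor list, the TET genes and the marker lists, and motifs named are the 4 and ETS. All 72 listed genes were matched. Alternatives were other read minimums, references and limits, 1 amplicon, each run left out, and, for RNA-seq, other normalization, filters, limits, blocking by replicate number, a joint fit of the 3 groups, and leaving out single libraries. Counting alike runs once, the difference of PU.1 and ETS within runs and the values of RUNX1 per run at its last 3 CpGs were added after seeing the data. The percentages deposited by the authors, motif sequences, the single OCT4SOX2 lines and siRNA libraries were not used here.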

Additional observations from a re-analysis of the deposited data

Results flagged for a closer look

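A difference between cell types under the same contrast brought 9 results here. Each is the difference of 2 Δmet values, tested with a normal interval over reads. The size within runs is given in the report, except for c-REL, which had no shared run. Under −SssI, Δmet in NPs minus that in ESCs was 15.1 points for GATA, 11.6 for PU.1, −41.5 for RUNX1 and 80.1 for c-REL. Under +SssI, the same difference was −7.25 points for GATA, −15.1 for PU.1 and −20.4 for RUNX1. Between TET TKO ESCs and ESCs under +SssI it was −24.9 points for GATA and −13.5 for PU.1. The comparisons under +SssI share the ESC pool. The spread of fragments over runs moved with several of these values, and the c-REL value rests on 18 Sc reads. The causes were not tested.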

How the results depend on the processing

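Of the alternatives to the main values of each comparison, 485 kept direction and size, 100 moved and 14 reversed. A Δmet counts as reversed when its sign turned and its 95% interval over all runs excludes 0. Where that interval includes 0, the sign turned in 17 of 117 alternatives, and those that went beyond the interval are among the moved ones. Where no cause is given, the cause was not tested. For GATA in ESCs under −SssI (−12.5 points), Δmet was −5.75 at 20 or 50 reads and for upstream CpGs, −5.80 as the share of methylated calls, and −37.0 downstream, and it reversed to 12.4 against the mean of all Sc fragments and 8.49 against FR1 without a motif. With runs left out it was −13.2 to −7.09. PU.1 gave −47.5 downstream, −2.95 against all Sc and −5.46 against no motif (runs left out, −19.4 to −8.29). RUNX1 gave 47.9 upstream, reversed to −3.91 downstream, and was 13.4 against all Sc, 9.52 against no motif and 4.70 within runs (26.7 to 37.2). c-REL gave −12.9 and −16.8 against these references. Counts below are followed by the share over all 30 pairs under the same setting. In this pool, lower CpGs numbered 14 at 20 points (37.1%) and 14 to 30 with runs left out (42.5% to 46.5%, with 42 CpGs instead of 88 without run 4). Higher CpGs numbered 11 within runs (23.1%) and 6 to 29 with runs left out (19.9% to 28.2%). Motifs with an HMR numbered 0 at 50 reads (50%), 3 against all Sc (56.7%) and 0 to 2 with runs left out (27.8% to 56.7%).

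In ESCs under +SssI, GATA reversed to −2.76 downstream and −0.949 against all Sc (runs left out, 0.101 to 23.5). PU.1 reversed to −0.314 downstream and −1.76 against all Sc and was 0.313 within runs (−3.08 to 10.4, reversed to −3.08 and −1.82 without run 4 or 5). RUNX1 gave −16.3 downstream (−7.10 to 68.5). Lower CpGs numbered 21 against all Sc (49.0%), 6 at 20 points (39.2%) and 6 to 20 with runs left out (38.0% to 51.8%). Higher CpGs numbered 8 against all Sc (7.68%), 15 within runs (13.5%), 12 at 20 points (6.95%) and 12 to 37 with runs left out (13.2% to 20.1%). Motifs with an HMR numbered 1 at 20 reads (58.6%), 50 reads (59.3%), within runs (44.8%) or at 20 points (46.7%), 0 with 5 CpGs per HMR (40%) and 0 to 2 with runs left out (37.5% to 60%). Outside these counts, the difference of PU.1 and ETS in ESCs under +SssI reversed from 21.0 to −3.69 within runs, an alternative added after the data were seen.

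In NPs under −SssI, RUNX1 was −0.275 downstream and reversed to 0.50 against all Sc. c-REL was 1.44 against all Sc and reversed to −1.97 against no motif. The mean of all Sc in this pool includes the c-REL Sc fragment at 3.70%. Lower CpGs numbered 11 against all Sc (23.6%) and 3 at 20 points (19.5%). Higher CpGs numbered 8 at 20 reads (14.1%) or 50 (14.3%), 5 against all Sc (10.6%), 9 within runs (14.8%) and 9 to 28 with runs left out (14.4% to 17.1%). Motifs with an HMR numbered 0 against all Sc (23.3%), at 20 points (16.7%) and with 5 CpGs (20%). Under +SssI, Δmet downstream was −5.21 for GATA and −11.2 for PU.1. c-REL reversed to 17.2 at 1 read, 0.804 against all Sc and 0.0339 against no motif, and was −26.3 within runs. Lower CpGs numbered 13 at 20 points (23.9%), and higher CpGs 10 at 1 read (10.7%) and 1 to 3 with runs left out (9.12% to 12.1%). Motifs with an HMR numbered 0 at 20 points (30%) and 1 with 5 CpGs (33.3%).

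In TET TKO ESCs, GATA was −4.12 downstream (runs left out, −20.9 to −1.76), PU.1 4.55 against all Sc and 5.60 against no motif, RUNX1 −9.82 downstream (−8.42 to 1.85) and c-REL 9.10 against all Sc. Higher CpGs numbered 27 against all Sc (20.3%), 3 at 20 points (12.3%) and 0 to 10 with runs left out (19.5% to 22.4%), and lower CpGs 3 to 25 with runs left out (10.1% to 20.3%, with 21 CpGs instead of 93 without run 10). Motifs with an HMR numbered 1 at 20 points (10%) or with 5 CpGs (20%) and 0 to 2 with runs left out (3.33% to 26.7%). Between pools, CpGs with a higher Δmet in NPs than in ESCs numbered 17 at 20 reads (38.6%) and 14 at 50 (41.5%) under −SssI, and under +SssI 3 at 20 reads (39.1%) or 50 (40.3%) and 2 on the log odds scale (31.4%). On that scale, 25 were lower (10.6%) and 5 higher (33.6%) in TET TKO ESCs than in ESCs. In NPs, 40 were lower under +SssI than under −SssI at 1 read (32.8%).

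Factor genes higher and lower in NPs numbered 7 and 6 with no filter beyond 1 count (8.51% and 8.18% of all genes), 2 and 1 with at least 10 counts in every library (10.5% and 6.46%), and 13 and 7 at an adjusted p under 0.05 without a fold limit (32.5% and 31.5%). With 1 library left out, 2 to 5 were higher (9.19% to 11.9%) and 2 to 4 lower (7.20% to 10.5%). For TET TKO ESCs these were 2 and 2 with DESeq2 (2.90% and 3.63%), 2 higher without the filter (1.70%), and 5 and 3 at 0.05 (17.6% and 16.0%). With the replicate number as a block, 1 was higher in TET TKO ESCs, and 255 genes were higher and 334 lower over all genes, against 118 and 180 without it. Same-numbered libraries correlated from −0.122 to 0.0185 in NPs and from −0.0925 to 0.351 in TET TKO ESCs, so the numbers were not taken as pairs.

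Read depth limits the c-REL values, with a median of 16 to 82 Sc reads over the compared CpGs of a pool. It also limits downstream values of ESCs under −SssI, with 15 to 27 reads for GATA and PU.1. Intervals assume independent reads, and reads of few cells would widen them. With 1 pool per condition, no spread over replicates is known.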
